A study of Mus musculus with 45 samples.

Results

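The genes described here are the mouse paralogs Trim30a, Trim30b, Trim30c and Trim30d on chromosome 7 and Phf11a, Phf11b, Phf11c and Phf11d on chromosome 14, 2 small clusters of genes known to respond to interferon. They were taken by symbol from the array's gene annotation, and of the 8 genes 7 had a probe set (Trim30c had none) among 19494 genes measured. They were chosen by their high log2 intensities in mice without MLKL. Those high levels are therefore given as a description, without a test, and p-values are given for other comparisons, some of which use the same mice.

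RNA of ileum pieces was hybridised to 45 arrays, 1 for each mouse, with 5 mice in each of 9 genotype groups. The mice were about 11 weeks old (10 to 12) and were kept under specific-pathogen-free conditions on chow. Fadd fl/fl and Casp8 fl/fl mice, which carry floxed alleles, were the controls. FADD IEC-KO mice lack FADD in intestinal epithelial cells and CASP8 IEC-KO mice lack caspase-8 there. Other groups added a second loss: ZBP1 in FADD IEC-KO Zbp1 -/-, RIPK3 in FADD IEC-KO RIPK3 IEC-KO (again in the epithelium), and MLKL in FADD IEC-KO Mlkl -/- as well as in CASP8 IEC-KO Mlkl -/-. The ninth group, FADD IEC-KO CASP8 IEC-KO Mlkl -/-, is called the triple mutants below; its title names FADD, while its genotype field does not. The Cre line is not given in the sources used here, and no group of Mlkl -/- mice with intact FADD and caspase-8 was analysed, so loss of MLKL was seen only on top of an epithelial deletion. The floxed genes stay intact in the cells of the ileum that are not epithelial, and in whole tissue fewer cells of a type and less RNA per cell cannot be told apart.

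FADD is the adaptor that brings caspase-8 to death receptors. When either is lost, RIPK3 can phosphorylate MLKL, which breaks the cell membrane in necroptosis, and ZBP1 is a nucleic acid sensor that can start this step. Type I and type III interferons act through JAK kinases and transcription factors that include STAT2 and IRF9, which bind interferon-stimulated response elements in promoters. TRIM30 proteins belong to the tripartite motif family of ubiquitin ligases: Trim30a has been described as a brake on Toll-like receptor signalling to NF-kB, and Trim30d as a restriction factor of tick-borne flaviviruses. Phf11 genes encode proteins with a PHD finger, a zinc-binding fold that in many proteins reads histone tails, and human PHF11 was first studied for its link to allergy and asthma.

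Promoters are shown for the members that differed most between CASP8 IEC-KO Mlkl -/- and CASP8 IEC-KO, which are Trim30a, Trim30d, Phf11b and Phf11d. Near-identical copies sit beside each other in both clusters, and Phf11a, the near-identical copy of Phf11b, is not shown. Each window runs from 250 bases before the RefSeq start to 30 bases after it (280 bases, GRCm38.p6, all on the minus strand, written 5′ to 3′). Capitals mark matches, on either strand, to the core letters of the interferon-stimulated response element, GAAANNGAAA, or to the same letters with a spacing of 1 base, GAAANGAAA, which was added after the sequences had been seen. The windows are chr7:104465164-104465443 for Trim30a (the first of its 2 starts), chr7:104507820-104508099 for Trim30d, chr14:59341301-59341580 for Phf11b and chr14:59365461-59365740 for Phf11d.
Trim30a: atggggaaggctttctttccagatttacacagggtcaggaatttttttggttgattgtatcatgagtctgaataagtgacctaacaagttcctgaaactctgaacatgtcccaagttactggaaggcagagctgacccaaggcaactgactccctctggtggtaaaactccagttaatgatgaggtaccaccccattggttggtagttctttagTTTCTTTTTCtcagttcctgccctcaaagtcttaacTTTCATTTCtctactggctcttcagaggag
Trim30d: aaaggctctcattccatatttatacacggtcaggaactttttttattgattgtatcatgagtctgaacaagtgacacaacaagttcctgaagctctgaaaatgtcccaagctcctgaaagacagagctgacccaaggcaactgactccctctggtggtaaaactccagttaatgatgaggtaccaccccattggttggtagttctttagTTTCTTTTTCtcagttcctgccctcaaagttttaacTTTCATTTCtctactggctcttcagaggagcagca
Phf11b: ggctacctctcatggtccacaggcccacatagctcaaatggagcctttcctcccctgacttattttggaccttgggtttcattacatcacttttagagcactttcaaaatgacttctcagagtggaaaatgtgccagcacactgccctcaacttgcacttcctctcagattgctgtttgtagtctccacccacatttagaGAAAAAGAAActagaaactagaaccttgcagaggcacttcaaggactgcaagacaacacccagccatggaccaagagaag
Phf11d: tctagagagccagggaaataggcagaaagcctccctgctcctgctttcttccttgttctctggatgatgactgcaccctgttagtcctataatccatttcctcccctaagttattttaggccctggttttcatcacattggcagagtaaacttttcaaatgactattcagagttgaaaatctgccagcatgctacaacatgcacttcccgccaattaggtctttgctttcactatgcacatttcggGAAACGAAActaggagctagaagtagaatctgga

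The first Trim30a window and the Trim30d window were 93.1% identical over 275 aligned bases. Both hold TTTCTTTTTC, the core element read on the other strand, 36 to 27 bases before the start in Trim30a and 41 to 32 bases before it in Trim30d, and both hold TTTCATTTC at the start itself. Phf11b carries GAAAAAGAAA 50 to 41 bases before its start. Phf11a, whose window was 98.8% identical to that of Phf11b over 259 bases, carries it 29 to 20 bases before its own. Phf11d shared 76.8% of 220 aligned bases with Phf11b and has GAAACGAAA across its start, with no match to the core. By the same count, the 20 pairs of windows from different clusters reached 66.1% to 84.4%, a range that holds 76.8%. The 84.4% rests on only 32 aligned bases, and the next highest was 78% over 150. Trim30b and Phf11c had a match to neither set of letters. Of the 8 members, 4 had the core letters and 4 the letters with the shorter spacing, against 3.8% and 3.51% of 27025 genes (3.28% and 3% of 32851 windows of that length). The shorter spacing was chosen after these windows had been seen, so its count is only a description. The gamma-activated sequence, TTCNNNGAA, not marked above, was matched in 1 member, Trim30c, against 9.04% of genes. Matches to the different letters do not overlap in these windows. A match describes letters and not binding, and windows of nearly identical copies are not separate observations. The probe sets measure whole genes, so the 2 starts of Trim30a were not told apart.

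The targeted genes were looked at first. Mean Fadd lay between 6.05 and 6.45 in the 5 groups without epithelial FADD and between 7.43 and 7.53 in the other 4, and mean Casp8 between 9.55 and 10.23 in the 3 groups without epithelial caspase-8 and between 11.14 and 11.40 elsewhere. FADD IEC-KO replicate 1, with a Fadd level of 7.32, and CASP8 IEC-KO replicate 1, with a Casp8 level of 10.89, stood nearer to the controls than to their groups, so results that rest on them are given with and without them. Mlkl was 8.05 in FADD IEC-KO Mlkl -/-, 7.14 in the triple mutants and 8.43 in CASP8 IEC-KO Mlkl -/-, the last close to the 8.62 of Casp8 fl/fl, so that it gives no check of that label. Ripk3 averaged 7.50 where RIPK3 was deleted and 8.03 or more elsewhere. Epithelial markers averaged between 11.62 and 11.86, and ileal enterocyte markers between 10.81 and 11.73, in every mouse. Numbers in the mouse titles were either under 100 or 200 and over; what they stand for is not stated. The 5 triple mutants all carry the higher numbers, which occur nowhere among FADD IEC-KO Mlkl -/- mice.

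Trim30a was the member with the widest range. All values below are log2 intensities, in which a step of 1 is a doubling, and levels of different probe sets are not compared. In CASP8 IEC-KO Mlkl -/- the mice had 9.30, 9.57, 9.06, 9.14 and 9.43 (9.30 ± 0.21, SD, n = 5). In FADD IEC-KO Mlkl -/- they had 7.83, 9.02, 8.18, 7.67 and 8.73 (8.29 ± 0.58), and in the triple mutants 8.28, 7.97, 8.62, 8.22 and 7.97 (8.21 ± 0.27). Every one of these 15 mice lay above all 30 mice of the other groups. The floxed controls stood lower: Fadd fl/fl mice had 6.38, 6.55, 6.91, 5.84 and 5.89 (6.31 ± 0.45), and Casp8 fl/fl mice had 5.42, 6.66, 5.62, 6.41 and 6.65 (6.15 ± 0.59). CASP8 IEC-KO mice, at 6.12, 5.51, 6.42, 5.98 and 6.08 (6.02 ± 0.33), and FADD IEC-KO RIPK3 IEC-KO mice, at 6.38, 5.85, 6.71, 5.31 and 5.59 (5.97 ± 0.57), overlapped both control groups.

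The lowest group for Trim30a was FADD IEC-KO, whose mice had 6.71, 4.69, 5.20, 4.87 and 5.55 (5.41 ± 0.80). Its replicate 1, the mouse with Fadd near control level, was also its highest for Trim30a. FADD IEC-KO Zbp1 -/- was the most spread, with 7.45, 5.80, 7.52, 5.19 and 6.56 (6.50 ± 1.02). Replicates 1 and 3 of that group came close to the lowest Mlkl -/- mouse, FADD IEC-KO Mlkl -/- replicate 4 at 7.67, while replicate 4 sat among the lowest FADD IEC-KO mice. Ordered by mean, the groups ran from CASP8 IEC-KO Mlkl -/- through FADD IEC-KO Mlkl -/-, the triple mutants, FADD IEC-KO Zbp1 -/-, Fadd fl/fl, Casp8 fl/fl, CASP8 IEC-KO and FADD IEC-KO RIPK3 IEC-KO to FADD IEC-KO. Neighbours in this order overlapped except at the first step and between the triple mutants and FADD IEC-KO Zbp1 -/-.

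**Figure D1:**
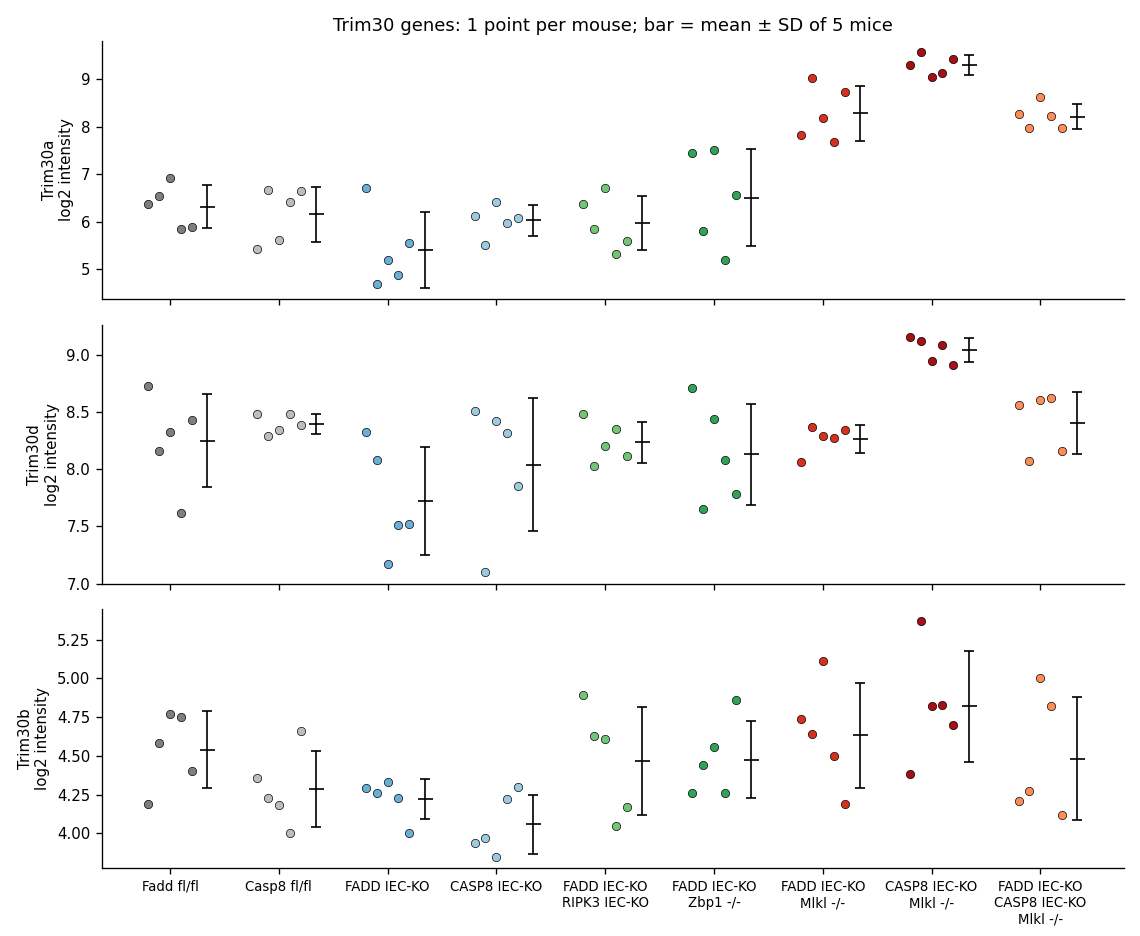
Log2 intensity of Trim30a, Trim30d and Trim30b (top to bottom, each on its own vertical scale that does not start at 0) in the 9 groups; each point is 1 mouse in replicate order and the bar is the mean ± SD of 5. All 15 Mlkl -/- mice lie above the other 30 for Trim30a, whereas for Trim30d only CASP8 IEC-KO Mlkl -/- stands clear of every other group.

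Trim30d, the paralog with the promoter most like that of Trim30a, followed it only in part (Pearson's r of 0.803 over the 9 group means). In CASP8 IEC-KO Mlkl -/- its mice had 9.16, 9.12, 8.95, 9.09 and 8.91 (9.04 ± 0.11, SD, n = 5), above all 40 other mice. The share of all genes that set this group apart in the same way was not counted. FADD IEC-KO Mlkl -/- mice, at 8.06, 8.37, 8.29, 8.27 and 8.34 (8.26 ± 0.12), stood at the level of Fadd fl/fl (8.73, 8.16, 8.33, 7.62 and 8.43, 8.25 ± 0.41) and below the mean of Casp8 fl/fl (8.40 ± 0.08). Triple mutants had 8.56, 8.07, 8.61, 8.62 and 8.16 (8.41 ± 0.27). The lowest groups were FADD IEC-KO, at 8.33, 8.08, 7.17, 7.51 and 7.52 (7.72 ± 0.47), and CASP8 IEC-KO, at 8.51, 7.10, 8.42, 8.32 and 7.85 (8.04 ± 0.58). Trim30b was dim, with a mean of 4.44 over all mice; its group means ran from 4.06 ± 0.19 in CASP8 IEC-KO to 4.82 ± 0.36 in CASP8 IEC-KO Mlkl -/-, and 24 of the 30 mice with Mlkl had more than the lowest Mlkl -/- mouse. Whether the probe set of a Trim30 or Phf11 gene also binds transcripts of another copy was not tested.

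Phf11d was the member of its cluster that varied most between groups. In CASP8 IEC-KO Mlkl -/- the mice had 8.40, 8.90, 8.43, 8.44 and 9.09 (8.65 ± 0.32, SD, n = 5), and in FADD IEC-KO Mlkl -/- 8.09, 8.98, 8.46, 7.70 and 8.59 (8.37 ± 0.49), so that these groups overlapped. The triple mutants, at 7.0, 7.08, 7.60, 6.97 and 7.34 (7.20 ± 0.27), lay below both without overlap. FADD IEC-KO Zbp1 -/- mice again ranged widely, with 6.99, 6.76, 7.90, 5.42 and 7.18 (6.85 ± 0.91), and 1 of them, replicate 3, passed all triple mutants. The other groups had means between 6.12 and 6.45 and overlapped one another. Over all mice with Mlkl the median was 6.22 and the highest 7.90, and 3 of the 30 exceeded the lowest Mlkl -/- mouse, a triple mutant at 6.97.

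Phf11b had the same 2 groups on top, with overlapping mice. FADD IEC-KO Mlkl -/- mice had 6.63, 8.43, 7.66, 6.39 and 7.81 (7.39 ± 0.85), and CASP8 IEC-KO Mlkl -/- mice had 6.50, 7.79, 7.24, 7.01 and 7.89 (7.28 ± 0.57). The triple mutants, with 5.62, 6.14, 6.56, 6.10 and 6.22 (6.13 ± 0.34), were within the range of Fadd fl/fl (5.97, 6.31, 6.31, 6.05 and 5.34, 5.99 ± 0.40) but for replicate 3. Phf11a was narrower: it averaged 6.05 ± 0.32 in FADD IEC-KO Mlkl -/-, 5.87 ± 0.34 in CASP8 IEC-KO Mlkl -/-, 5.40 ± 0.29 in the triple mutants and 5.15 to 5.50 in the others. Phf11c, which lacks both sets of promoter letters, was narrower still for the mean of a group, from 7.25 ± 0.24 in Casp8 fl/fl to 7.96 ± 0.41 in CASP8 IEC-KO Mlkl -/-; its 5 FADD IEC-KO Mlkl -/- mice lay between 7.81 and 7.97. Neighbouring groups in the order of Phf11b all overlapped.

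**Figure D2:**
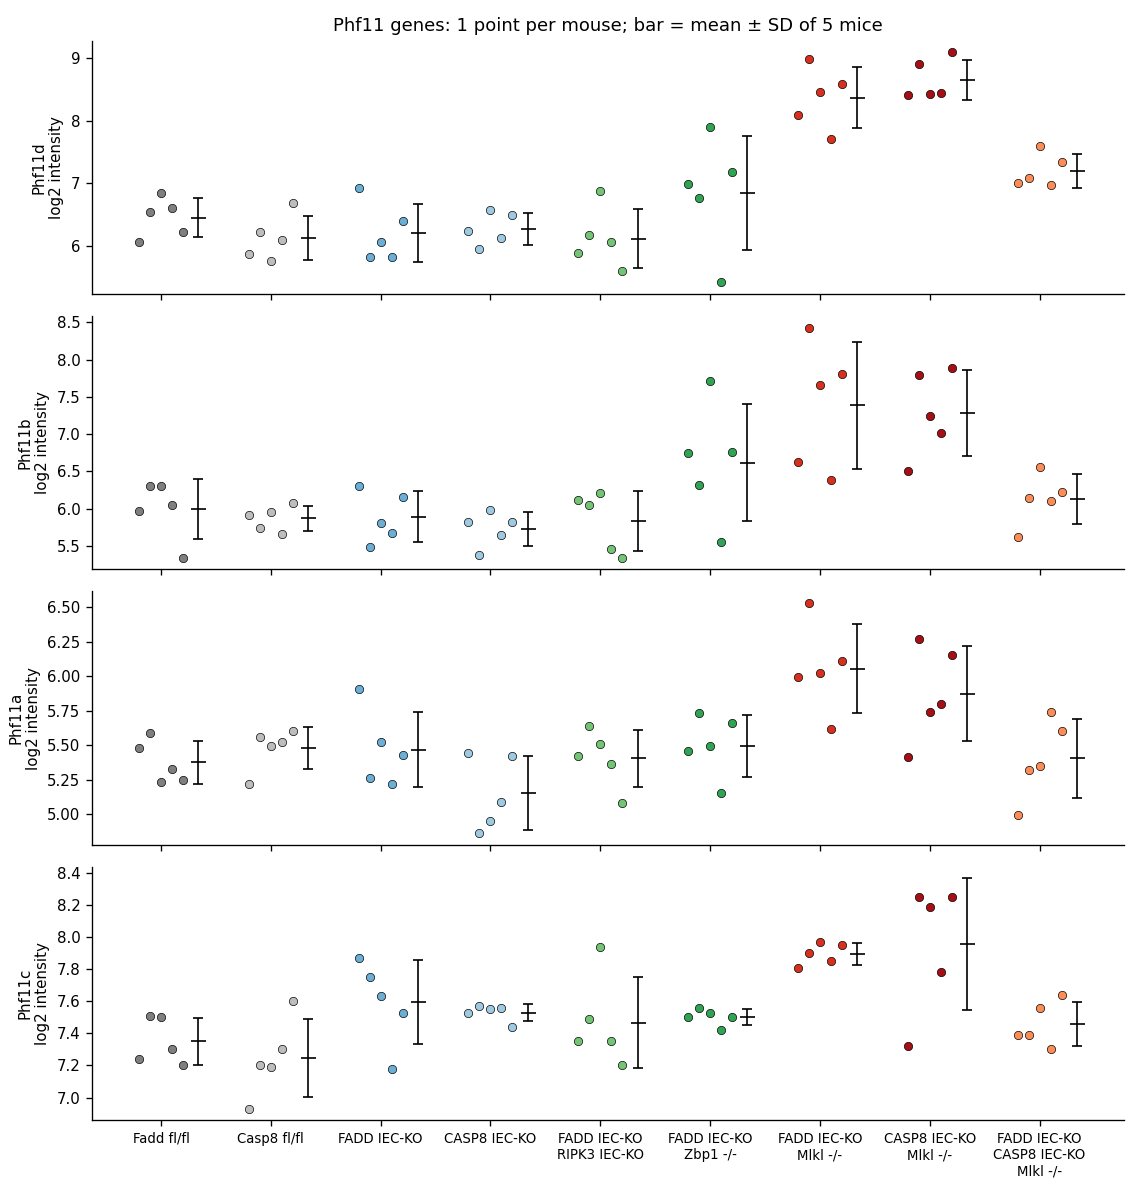
Log2 intensity of Phf11d, Phf11b, Phf11a and Phf11c (top to bottom, each on its own vertical scale that does not start at 0) in the 9 groups; each point is 1 mouse in replicate order and the bar is the mean ± SD of 5. The triple mutants lie near the mice with Mlkl for Phf11b and between the groups for Phf11d, at 6.97 to 7.60.

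Against the same epithelial deletion with Mlkl, the differences that had drawn attention to the members were, in log2 units ± SE, 3.28 ± 0.35 for Trim30a without caspase-8 (9.69-fold) and 2.88 ± 0.35 without FADD (7.36-fold). Phf11d differed by 2.37 ± 0.28 and 2.16 ± 0.28, Phf11b by 1.55 ± 0.30 and 1.5 ± 0.30, and Trim30d by 1.0 ± 0.21 and 0.54 ± 0.21. Trim30b differed by 0.76 ± 0.18 and 0.41 ± 0.18, Phf11a by 0.72 ± 0.16 and 0.59 ± 0.16, and Phf11c by 0.43 ± 0.14 and 0.30 ± 0.14. At limma's adjusted p under 0.05 the same fit placed 6 of the 7 higher without caspase-8 (1.59% of all genes) and 4 of the 7 without FADD (0.857%), counts that the choice of members fixed in part. Mice with title numbers under 100 gave 3.25 for Trim30a without caspase-8 (4 against 3 mice) and 2.92 without FADD (5 against 4), and those of 200 and over gave 3.40 without caspase-8 (1 against 2). With FADD IEC-KO and CASP8 IEC-KO replicate 1 left out, Trim30a differed by 3.21 without FADD and 3.30 without caspase-8, and Phf11d by 2.34 and 2.36. Paneth cell and goblet cell markers were called in only 1 of these comparisons: 3 of 5 of each were higher in CASP8 IEC-KO Mlkl -/- than in CASP8 IEC-KO, and 0 of 5 of each were called in FADD IEC-KO Mlkl -/- against FADD IEC-KO (0 and 1 at an unadjusted p under 0.05). The mean level of the neutrophil markers was 4.29 against 4.95 without FADD and 4.18 against 4.37 without caspase-8. That of the ileal enterocyte markers was 11.04 against 11.29 and 11.17 against 11.34. The mice overlapped for both lists in both comparisons. Their part in the result was not tested. The lists for T cells, B cells, macrophages and plasmacytoid dendritic cells, which are strong producers of type I interferon, had 0 markers called in either. At an unadjusted p under 0.05 these were 7 of 7, 0 of 5, 3 of 5 and 2 of 5 without caspase-8 and 2 of 7, 3 of 5, 0 of 5 and 1 of 5 without FADD.

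Set beside the floxed controls, the picture was the same for some members and not for others. In CASP8 IEC-KO Mlkl -/- Trim30a was 3.15 and Phf11d 2.52 above Casp8 fl/fl (4 of 7 members higher, 0.775% of all genes). In FADD IEC-KO Mlkl -/- Trim30a was 1.97 and Phf11d 1.91 above Fadd fl/fl, whereas Trim30d differed by 0.01 and Trim30b by 0.10 (5 of 7 members, all but those, 4.12%). The triple mutants had Trim30a 1.90 above Fadd fl/fl (1 of 7 members, 1.71%) and 2.06 above Casp8 fl/fl (2 of 7, 0.677%), with Phf11d 0.75 and 1.07 above them. The 0.75 of Phf11d was not called. The other measured members differed by -0.06 to 0.16 from Fadd fl/fl and by -0.07 to 0.26 from Casp8 fl/fl, without a call. Among mice numbered 200 and over, the triple mutants differed from Fadd fl/fl by 2.0 for Trim30a and 0.65 for Phf11d (5 against 3). From Casp8 fl/fl they differed by 1.57 and 0.52 (5 against 1). Compared with FADD IEC-KO Zbp1 -/- mice, FADD IEC-KO Mlkl -/- mice had 1.78 more Trim30a and 1.52 more Phf11d (3 of 7 members, 2.36%), and compared with FADD IEC-KO RIPK3 IEC-KO mice 2.32 and 2.25 more (4 of 7, 2.04%). These comparisons share groups, so their values are not separate evidence.

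The Mlkl -/- groups differed among themselves. The members were not chosen by these contrasts, but high levels in some of the same mice led to the choice, so the tests are not fully independent of it. Set against FADD IEC-KO Mlkl -/-, the triple mutants had less of all 4 Phf11 genes, while the 3 measured Trim30 genes did not pass the test. Among the Phf11 genes, Phf11b was lower by -1.26 ± 0.30 (SE, 5 mice a group, adjusted p = 0.0069), Phf11d by -1.17 ± 0.28 (adjusted p = 0.0067), Phf11a by -0.65 ± 0.16 (adjusted p = 0.0071) and Phf11c by -0.44 ± 0.14 (adjusted p = 0.0367). Among all genes 2.35% fell in this comparison. Phf11d and Phf11c also separated the mice completely, as 4.04% of all genes did in that direction. Trim30a differed by -0.07 ± 0.35 (95% interval -0.78 to 0.64, adjusted p = 0.942), Trim30d by 0.14 ± 0.21 (adjusted p = 0.764) and Trim30b by -0.15 ± 0.18 (adjusted p = 0.680). A direct test of the difference between the clusters was not made.

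The call of Phf11c in that comparison was lost without triple mutant replicate 1, 2 or 4 or without FADD IEC-KO Mlkl -/- replicate 2, 3, 4 or 5, with an adjusted p of up to 0.0921. The other 3 calls held when any of the 10 mice was left out. No title series holds mice of both groups, so title series and group cannot be told apart by a direct comparison. A fit over all groups with the title series as a covariate kept Phf11d (-1.15, adjusted p = 0.0424) and left Phf11a (-0.61, 0.0549), Phf11b (-1.12, 0.0677) and Phf11c (-0.44, 0.114) without a call. The triple mutants also had more smooth muscle and Paneth cell transcripts than FADD IEC-KO Mlkl -/-: 4 of 4 smooth muscle markers were higher, with a mean level of 10.50 to 10.99 in the mice against 9.71 to 10.15, and 4 of 5 Paneth cell markers, with 10.69 to 11.17 against 8.24 to 9.90. Their part in the result was not tested. The mean level of the T cell and intraepithelial lymphocyte markers was also higher in each triple mutant (7.98 to 8.32, against 7.23 to 7.83), as was that of the ileal enterocyte markers (11.28 to 11.41, against 10.90 to 11.21), and the part of either was not tested. Of the single T cell, B cell, macrophage and plasmacytoid dendritic cell markers 0 were called there (2 of 7, 0 of 5, 0 of 5 and 1 of 5 at an unadjusted p under 0.05).

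Against CASP8 IEC-KO Mlkl -/-, every member had a lower mean in the triple mutants, and 3 passed the test, all of the Phf11 cluster. Phf11d was lower by -1.45 ± 0.28 (95% interval -2.02 to -0.89, adjusted p = 0.0021), Phf11b by -1.16 ± 0.30 (adjusted p = 0.0233) and Phf11c by -0.50 ± 0.14 (adjusted p = 0.0291), where 1.07% of all genes fell. Trim30a, at -1.09 ± 0.35 (adjusted p = 0.0785), and Trim30d, at -0.64 ± 0.21 (adjusted p = 0.0813), missed the threshold, although for both each triple mutant lay below each CASP8 IEC-KO Mlkl -/- mouse; Phf11d also separated the mice, and 2.32% of all genes did so in that direction. Phf11a differed by -0.47 ± 0.16 (adjusted p = 0.0933) and Trim30b by -0.34 ± 0.18 (adjusted p = 0.359).

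Only the call of Phf11d held in every leave-out of that comparison. Phf11b lost its call without triple mutant replicate 1 or CASP8 IEC-KO Mlkl -/- replicate 2, 3 or 5 (adjusted p up to 0.0843), and Phf11c without triple mutant replicate 1, 2 or 4 or CASP8 IEC-KO Mlkl -/- replicate 2, 3 or 5 (up to 0.119). Phf11a gained a call without CASP8 IEC-KO Mlkl -/- replicate 1 (-0.59, adjusted p = 0.0298). With the title series as a covariate Phf11d alone was called (-1.44, adjusted p = 0.0174), and among mice numbered 200 and over, 5 against 1, it differed by -1.89 and Trim30a by -1.22. Of 4 smooth muscle and 5 Paneth cell markers, 0 were called in this comparison and 0 had an unadjusted p under 0.05. The mean level of the ileal enterocyte markers was higher in each triple mutant (11.28 to 11.41, against 11.03 to 11.25), and that of the general epithelial markers was 11.77 to 11.80 against 11.68 to 11.77. Their part in the result was not tested.

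Between FADD IEC-KO Mlkl -/- and CASP8 IEC-KO Mlkl -/-, 1 of the 3 measured Trim30 genes passed the test. Trim30d was lower without FADD by -0.78 ± 0.21 (adjusted p = 0.0336), with no overlap of the mice, and was the only member called (1.54% of all genes fell). Trim30a was lower by -1.01 ± 0.35 (adjusted p = 0.129), also without overlap, which 4.09% of all genes showed in that direction, and Trim30b had an adjusted p of 0.711. The Phf11 genes differed by -0.29 to 0.18 and were not called. The Trim30d call held in the leave-outs only without CASP8 IEC-KO Mlkl -/- replicate 5 (adjusted p = 0.0412); without any other of the 10 mice the difference was -0.73 to -0.80 and the adjusted p 0.0517 to 0.0887. A fit of these 2 groups alone called Trim30a as well. In FADD IEC-KO Mlkl -/- 3 of 5 Paneth cell and 3 of 4 smooth muscle markers were lower than in CASP8 IEC-KO Mlkl -/-, and the mean level of the T cell and intraepithelial lymphocyte markers was lower without overlap (7.23 to 7.83, against 7.89 to 8.31). Their part in the result was not tested.

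**Figure D3:**
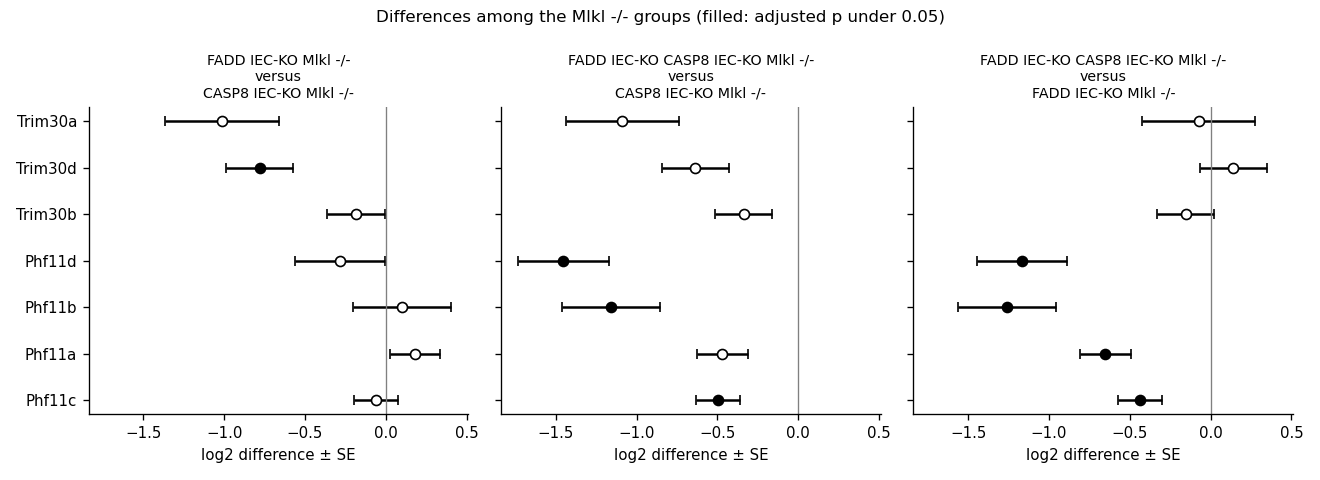
Log2 difference ± SE of the 7 measured members between pairs of Mlkl -/- groups (5 mice each), with filled points for a limma adjusted p under 0.05 and the line at 0. Phf11d and Phf11b sit between -1.45 and -1.16 in both comparisons of the triple mutants, while Trim30a sits at -1.01 and -1.09 against CASP8 IEC-KO Mlkl -/- and at -0.07 against FADD IEC-KO Mlkl -/-.

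The difference made by Mlkl loss was also set against itself in the 2 deletions, a test built from the contrasts behind the choice of members. For Trim30a it was smaller by -0.40 ± 0.50 without FADD than without caspase-8 (95% interval -1.40 to 0.61, adjusted p = 0.960), and for Phf11d by -0.22 ± 0.40. None of the members passed this interaction test, in which limma called 0.0564% of all genes and 0 members had an unadjusted p under 0.05.

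Epithelial loss of FADD or caspase-8 with Mlkl intact was followed by no change of a member that passed the test. Against Fadd fl/fl, Trim30a was lower in FADD IEC-KO by -0.91 ± 0.35 (95% interval -1.62 to -0.20, adjusted p = 0.135) and Trim30d by -0.53 ± 0.21 (adjusted p = 0.141). These 2 of 7 members had an unadjusted p under 0.05, as did 18.4% of all genes, and 0 were called, where 3.73% of all genes were. Without FADD IEC-KO replicate 1, Trim30a fell by -1.23 (adjusted p = 0.0345). In the same comparison 4 of 5 Paneth cell and 2 of 5 macrophage markers were lower. The mean level of the neutrophil markers was higher in each FADD IEC-KO mouse (4.40 to 5.54, against 4.21 to 4.37), and that of the endothelial markers averaged 6.80 against 7.25. Their part in the result was not tested. In CASP8 IEC-KO, Trim30a differed from Casp8 fl/fl by -0.13 ± 0.35 (95% interval -0.84 to 0.58, adjusted p = 0.888), 0 of 7 members were called (4.17% of all genes), and 2, Phf11a and Phf11c, had an unadjusted p under 0.05, as did 18.7% of all genes. Leaving out any 1 mouse left the count of members at 0, while that of all genes ran from 204 to 1354. The difference between the 2 losses was tested as well, and 0 members and 0% of all genes were called (0 members at an unadjusted p under 0.05, 6.52% of all genes). The floxed groups themselves did not differ in a member by this test (0 called and 0 at an unadjusted p under 0.05; 0.00513% and 8.38% of all genes).

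With ZBP1 lost on top of FADD, Trim30a, Phf11b and Phf11d lay at scattered levels, and no member passed the test. Against FADD IEC-KO, Trim30a was higher in FADD IEC-KO Zbp1 -/- by 1.10 ± 0.35 (95% interval 0.39 to 1.81, adjusted p = 0.0715), Phf11b by 0.73 ± 0.30 (adjusted p = 0.182) and Phf11d by 0.64 ± 0.28 (adjusted p = 0.206). These 3 had an unadjusted p under 0.05 (17.8% of all genes), and 0 of 7 were called, where 3.32% of all genes were. Trim30a passed the test without FADD IEC-KO replicate 1 (1.42, adjusted p = 0.0177), without FADD IEC-KO Zbp1 -/- replicate 2 (1.27, 0.0402) or replicate 4 (1.42, 0.0218), and with the title series as a covariate (1.15, 0.0466). Phf11d passed without FADD IEC-KO Zbp1 -/- replicate 4 (1.0, adjusted p = 0.0249). Within title numbers under 100 the Trim30a difference was 1.55 (3 against 4 mice), and among those of 200 and over 0.32 (2 against 1). Phf11d differed by 1.05 and -0.09 in these sets of mice and Phf11b by 1.11 and -0.01, so that the direction turned for both.

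Set against Fadd fl/fl, 0 of 7 members were called in FADD IEC-KO Zbp1 -/- (11.9% of all genes; Phf11b at an unadjusted p under 0.05, as were 25.2% of all genes). Without its replicate 4, Phf11b (0.89, adjusted p = 0.0442) and Phf11d (0.76, 0.0390) were. Within title numbers under 100 Phf11d differed by 0.91 (3 against 2 mice), and among those of 200 and over by -0.25 (2 against 3). FADD IEC-KO RIPK3 IEC-KO mice had 0 of 7 members called against FADD IEC-KO (1.55% of all genes; Trim30d, 0.52 ± 0.21, at an unadjusted p under 0.05, as were 14.2% of all genes) and against Fadd fl/fl (1.23%; 0 at an unadjusted p under 0.05). Between FADD IEC-KO RIPK3 IEC-KO and FADD IEC-KO Zbp1 -/- 0 were called too (2.02%), with Phf11b at -0.78 (adjusted p = 0.175) and Phf11d at -0.73 (adjusted p = 0.171); without FADD IEC-KO Zbp1 -/- replicate 4 these became -1.05 (0.0449) and -1.09 (0.0099).

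The nearest measured genes on each side were read for comparison. Trim12a and Trim12c, tripartite motif genes next to the Trim30 cluster, were 1.38 ± 0.18 and 0.96 higher in CASP8 IEC-KO Mlkl -/- than in CASP8 IEC-KO, the 2 of 10 neighbours called there. In FADD IEC-KO Mlkl -/- against FADD IEC-KO Trim12a was called (0.66) and Trim12c was not (0.55). Like Trim30d they were lower in FADD IEC-KO Mlkl -/- than in CASP8 IEC-KO Mlkl -/-, Trim12a by -0.97 ± 0.18 (adjusted p = 0.00114) and Trim12c by -0.68 ± 0.19 (adjusted p = 0.0433). Trim12a was also lower in the triple mutants than in CASP8 IEC-KO Mlkl -/- (-0.88, adjusted p = 0.00313). The pseudogene Trim30e-ps1 differed by 0.61 and 0.72 in the same comparisons, without a call. The olfactory receptor genes on both flanks, Olfr648 and Olfr649 on the lower side and Olfr651 to Olfr654 on the upper, differed by -0.59 to 0.28 in CASP8 IEC-KO Mlkl -/- against CASP8 IEC-KO. Around the Phf11 cluster, 0 of 10 neighbours were called in CASP8 IEC-KO Mlkl -/- against CASP8 IEC-KO (1 at an unadjusted p under 0.05) or in FADD IEC-KO Mlkl -/- against FADD IEC-KO (2). The same held for the triple mutants against FADD IEC-KO Mlkl -/- (0 called, 0 unadjusted) and against CASP8 IEC-KO Mlkl -/- (0 called, 2 unadjusted).

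**Figure D4:**
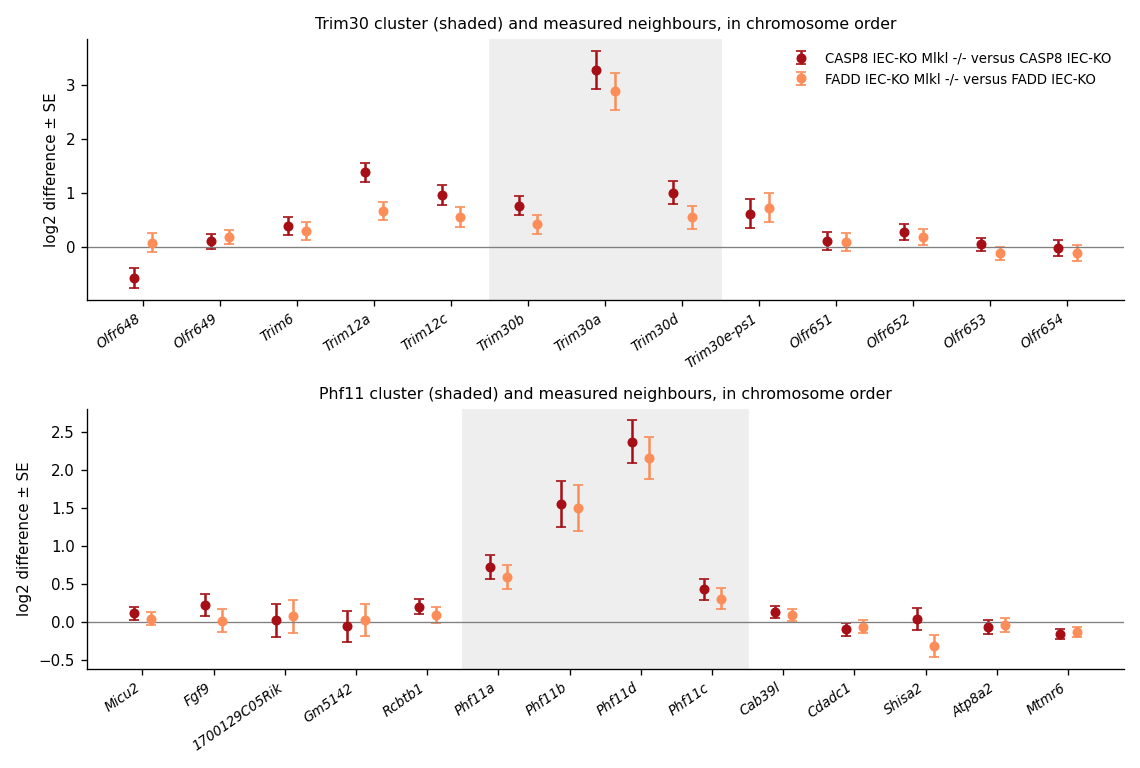
Log2 difference ± SE of CASP8 IEC-KO Mlkl -/- against CASP8 IEC-KO and of FADD IEC-KO Mlkl -/- against FADD IEC-KO for the measured members (shaded) and the 5 nearest measured genes on each side, in chromosome order without distances. Trim12a and Trim12c stand above 0 beside the Trim30 cluster at 1.38 and 0.96 without caspase-8, whereas the genes beside the Phf11 cluster lie near 0.

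Other members of the 2 families were compared from lists made with earlier results of these data known. Of 11 measured TRIM genes, 5 were higher in CASP8 IEC-KO Mlkl -/- than in CASP8 IEC-KO (median 0.39, against -0.01 for all genes): Trim12a, Trim12c, the antibody receptor Trim21 (0.81), Trim14 (0.61) and Trim25 (0.49), which ubiquitinates the RNA sensor RIG-I. In FADD IEC-KO Mlkl -/- against FADD IEC-KO 2 were higher, Trim12a and Trim25 (0.35). FADD IEC-KO Mlkl -/- had 4 of the 11 lower than CASP8 IEC-KO Mlkl -/- (median -0.32, all genes 0.01), the Trim12 genes with Trim25 (-0.38, adjusted p = 0.0178) and Trim56 (-0.35, adjusted p = 0.0205). None of 8 PHD finger or linked genes outside the cluster was called with loss of MLKL in either deletion (1 each at an unadjusted p under 0.05), nor in the triple mutants against FADD IEC-KO Mlkl -/- (0 called, 1 unadjusted).

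The interferon pathway was laid out by role beside the members, again from a list made with results known. Of 9 ligand genes, among them Ifnb1, Ifnl2, Ifnl3 and Ifng, 0 were called in FADD IEC-KO Mlkl -/- against FADD IEC-KO (0 at an unadjusted p under 0.05) or in CASP8 IEC-KO Mlkl -/- against CASP8 IEC-KO (1). Ifnb1 differed by 0.01 and 0.11 there. The mean level of the 9 ligand genes was 5.17 to 5.33 by group, below the array medians of 6.36 to 6.44. Whether the arrays could show a change at such low levels was not tested. Of 6 receptor chains only Ifnlr1, the specific chain of the type III interferon receptor, was called, lower by -0.79 ± 0.11 in FADD IEC-KO Mlkl -/- than in FADD IEC-KO. In the caspase-8 pair, CASP8 IEC-KO Mlkl -/- against CASP8 IEC-KO, it differed by -0.27 and 0 of 6 were called (1 at an unadjusted p under 0.05). Ifnlr1 was also lower in FADD IEC-KO Mlkl -/- than in CASP8 IEC-KO Mlkl -/- (-0.62, adjusted p = 0.00142). It was higher in the triple mutants than in FADD IEC-KO Mlkl -/- (0.49, adjusted p = 0.00542), as were Il10rb (0.31) and Ifngr2 (0.35). Among 7 signalling genes Irf7, Stat2 and Irf9 were higher with loss of MLKL, by 1.03, 0.82 and 0.51 without FADD and by 1.35, 0.96 and 0.50 without caspase-8. Among 9 sensors Ddx58, which encodes RIG-I, and Ifih1, which encodes MDA5, were higher by 1.06 and 0.65 without FADD and by 1.19 and 0.79 without caspase-8, where Zbp1 (1.51) and Tlr3 (0.79) were higher as well.

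Of 27 interferon-induced genes, 24 were higher in FADD IEC-KO Mlkl -/- than in FADD IEC-KO (median 1.36, all genes -0.01) and 27 in CASP8 IEC-KO Mlkl -/- than in CASP8 IEC-KO (median 1.68). In the triple mutants 20 were higher than in Casp8 fl/fl (median 1.09). The antiviral genes Isg15 and Oas2 differed by 2.37 and 2.25 without FADD, and Rsad2 and Oas2 by 2.59 and 2.54 without caspase-8, between the values of Phf11d and Trim30a. Between the triple mutants and CASP8 IEC-KO Mlkl -/- 10 of the 27 were lower (median -0.64, all genes 0.02), with the dynamin-like Mx2 at -1.71 (adjusted p = 5.5e-05) and Rsad2 at -1.51 (adjusted p = 0.00049) beyond Phf11d. Between the triple mutants and FADD IEC-KO Mlkl -/-, where the 4 Phf11 genes were lower, the list had a median of 0.02 (all genes 0.01): Mx2 was lower (-0.80, adjusted p = 0.0332), Irf7 was higher (0.58, adjusted p = 0.026), and 25 were not called. FADD IEC-KO Zbp1 -/- had 8 of the 27 higher than FADD IEC-KO (median 0.75), led by Isg15 (1.49 ± 0.28, adjusted p = 0.00264) and Rtp4 (1.43 ± 0.23, adjusted p = 0.0015). With epithelial loss of FADD alone 2 were lower than in Fadd fl/fl, Rtp4 (-0.84, adjusted p = 0.0344) and Ifi27l2a (-0.47, adjusted p = 0.0474).

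Genes whose levels ran most like those of a member were found by Pearson's r over the 45 arrays, which share groups, so these are descriptions. Members, predicted genes and genes with clone or locus names were left out of this search. Nearest to Trim30a were Oasl2 (r = 0.965), Herc6 (0.963), Xaf1 (0.960), Oas2 (0.957) and Rtp4 (0.955). Nearest to Phf11d were Ifit2 (0.939), Usp18 (0.930), Xaf1 (0.925), Slfn2 (0.924) and Ifi204 (0.921). For Trim30d the first 2 were its chromosome neighbours Trim12c (0.838) and Trim12a (0.834). By Spearman's rho 2 of the 5 remained for Trim30a and 3 of the 5 for Phf11d. Over the deviations of mice from their group means, Oasl2 kept 0.897 with Trim30a and Ifit2 0.782 with Phf11d. Among the members, Trim30a and Phf11d had r = 0.918 over all mice and 0.808 over the deviations, above Trim30a with its own neighbour Trim30d (0.666 and 0.463). Trim30d had r of 0.303, 0.401, 0.221 and 0.492 over all mice with Phf11a, Phf11b, Phf11c and Phf11d, and Trim30b 0.437 to 0.576. Phf11b and Phf11d had 0.897 and 0.829. Herc6, Ifit2, Oas2 and Trim30a were the only 4 of 19494 genes (0.0205%) with all 15 Mlkl -/- mice above all 30 others, and 0 genes had them all below.

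**Figure D5:**
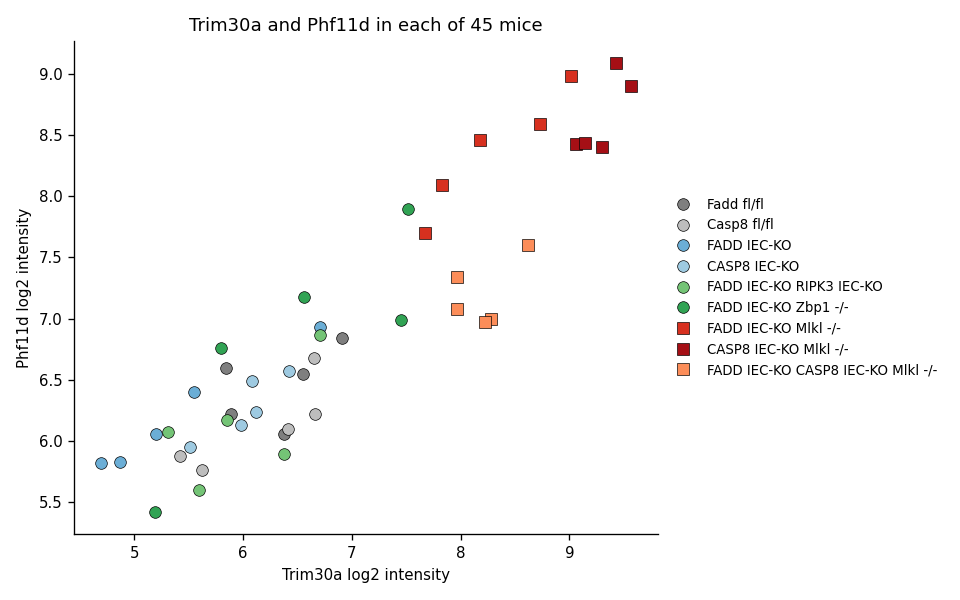
Log2 intensity of Trim30a (horizontal) against Phf11d (vertical) in each of the 45 mice, coloured by group, with squares for Mlkl -/- groups and axes that do not start at 0. The triple mutants, at 7.97 to 8.62 for Trim30a, lie below the FADD IEC-KO Mlkl -/- mice of like Trim30a level, with Phf11d at 6.97 to 7.60.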

How the data were processed

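The values used are the log2 intensities that the authors deposited, already normalized. Per the submitters' processing notes, Affymetrix Expression Console and Transcriptome Analysis Console were used, with no versions named; how probes were summarized, and on which genome build, is not given in the sources used here. In all there were 22142 probe sets, of which 19527 had 1 gene symbol, 0 several and 2615 none. The probe set with the highest mean stood for each gene (33 genes had several), leaving 19494 genes. Array medians lay between 6.36 and 6.44, no 2 arrays were identical, and with 1 array a mouse the 5 mice of each group limit the precision. No filter on dim probe sets was applied.

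All 45 arrays entered 1 fit, with a mean for each group, in limma 3.58.1 in R 4.3.3 (lmFit and eBayes, 36 residual degrees of freedom), checked on simulated data, with Benjamini-Hochberg adjustment over 19494 genes within each comparison and calls at an adjusted p under 0.05. There were 11 tested comparisons, 2 interactions and 8 comparisons of Mlkl -/- groups with groups carrying Mlkl that are described without p-values. The members, lists and comparisons were chosen with earlier results of these data known. Named genes are the members, their 5 nearest measured genes on each side, the 5 genes of highest Pearson's r with a member (for Trim30d the first 2), targeted genes and called genes of the lists; list examples were picked after their values were seen. Groups follow the titles. The labels do not say that the mice came from separate litters or cages. A p-value here sets a difference against the spread of these mice within their groups, pooled over all 9 groups. For Trim30a the SD of a group ran from 0.21 to 1.02. Promoter windows come from RefSeq (GRCm38.p6) and matched all 8 members. They were aligned over their whole length with Biopython 1.88, with gaps at the ends free. Percent identity counts aligned bases only, without gaps. Alternatives left out each mouse, fitted only the groups compared, weighted arrays, added the title series, centred or quantile-normalized arrays, required a mean of at least 5, kept all probe sets, or averaged the probe sets of a gene.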

Additional observations from a re-analysis of the deposited data

Results flagged for a closer look

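Among 63 sets of 5 mice (7 members in 9 groups), 1 held a mouse set apart from the other 4. Casp8 fl/fl replicate 1 had a Phf11a level of 5.22, while the next mouse had 5.49 and the group ended at 5.60. The gap made up 0.733 of the group's range, above the critical value of 0.71. Chance flags about 1 in 20 such sets. Phf11a in CASP8 IEC-KO against Casp8 fl/fl was not called with or without this mouse.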

How the results depend on the processing

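No paired analysis was possible because no title number recurs between groups, and replicate numbers only give the order of mice within a group. Over the alternatives no difference of a member that was called turned its sign. Leaving out 1 mouse at a time, the number of members called ranged from 0 to 1 for FADD IEC-KO against Fadd fl/fl and for FADD IEC-KO Mlkl -/- against CASP8 IEC-KO Mlkl -/-. It ranged from 0 to 2 for FADD IEC-KO Zbp1 -/- against FADD IEC-KO and against Fadd fl/fl and for FADD IEC-KO RIPK3 IEC-KO against FADD IEC-KO Zbp1 -/-, from 1 to 4 for the triple mutants against CASP8 IEC-KO Mlkl -/- and from 3 to 4 for them against FADD IEC-KO Mlkl -/-. Among the comparisons described without a test it ranged from 3 to 4 for FADD IEC-KO Mlkl -/- against FADD IEC-KO, 5 to 7 for CASP8 IEC-KO Mlkl -/- against CASP8 IEC-KO, 1 to 2 for the triple mutants against Casp8 fl/fl, and 2 to 4 and 3 to 5 for FADD IEC-KO Mlkl -/- against FADD IEC-KO Zbp1 -/- and against FADD IEC-KO RIPK3 IEC-KO.

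With the title series as a covariate, 1 member was called in FADD IEC-KO Zbp1 -/- against FADD IEC-KO (0 without it), 1 in the triple mutants against CASP8 IEC-KO Mlkl -/- (3), 1 against FADD IEC-KO Mlkl -/- (4) and 1 against Casp8 fl/fl (2). Array weights gave 2 for FADD IEC-KO Mlkl -/- against CASP8 IEC-KO Mlkl -/- (1) and 6 for the triple mutants against CASP8 IEC-KO Mlkl -/- (3). A fit of only the groups compared gave 2 for FADD IEC-KO Mlkl -/- against CASP8 IEC-KO Mlkl -/- (1), 2 for it against FADD IEC-KO (4) and 2 for the triple mutants against Fadd fl/fl (1). An alternative chosen after seeing the data left out FADD IEC-KO and CASP8 IEC-KO replicate 1 together, and gave 1 for FADD IEC-KO against Fadd fl/fl (0) and 1 for FADD IEC-KO Zbp1 -/- against FADD IEC-KO (0), Trim30a both times. The causes were not tested. Centring, quantile normalization, the filter at a mean of 5, all probe sets and the mean of probe sets left each count of members within 1.5 times. Of all genes called between the triple mutants and FADD IEC-KO Mlkl -/-, 70.1% were higher, against 59.1% with centring and 51.8% with quantile normalization. The probe set of Trim30b was the only member's with a mean under 5, where array signal limits what can be seen.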

Other observations

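Trim6, another tripartite motif gene beside the Trim30 cluster, was called in some comparisons of FADD IEC-KO Zbp1 -/- mice. It was higher in FADD IEC-KO Zbp1 -/- than in Fadd fl/fl by 0.75 (limma, 5 mice a group, adjusted p = 0.00201) and lower in FADD IEC-KO RIPK3 IEC-KO than in FADD IEC-KO Zbp1 -/- by -0.90 (adjusted p = 0.0013), while the members were not called in either comparison. In the same order, Oas2, among the genes nearest to Trim30a, differed by 0.80 (adjusted p = 0.0067) and -0.72 (adjusted p = 0.0486). Phf11b (0.62 and -0.78) and Phf11d (0.40 and -0.73) differed in the same directions and passed without FADD IEC-KO Zbp1 -/- replicate 4. Trim30d differed the other way (-0.12 and 0.11), as Trim30b did in the first comparison (-0.06). Between CASP8 IEC-KO Mlkl -/- and CASP8 IEC-KO, Trim6 differed by 0.39 and was not called. Beside the Phf11 cluster, Cab39l, a partner of the kinase LKB1, was higher in FADD IEC-KO RIPK3 IEC-KO than in FADD IEC-KO Zbp1 -/- by 0.28 (adjusted p = 0.0448).

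Over the 45 arrays the genes of highest Pearson's r with Phf11c were Serp1 (0.773) and Pdia3 (0.772), both of the endoplasmic reticulum. Slfn4 (0.756) was among its nearest genes as it was among those of Phf11b (0.851). With Phf11d, Phf11b and Phf11a its r was 0.730, 0.694 and 0.653, and with Trim30d 0.221 (0.016 over deviations from the group means). Among genes that are not members, Phf11a had its highest r with Apol10b (0.760) and Trim30b with H2-T10 (0.609). Phf11a and the member Phf11b had 0.809. These are descriptions over arrays that share groups.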
